A study of Mus musculus with 10 samples.

Results

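The insulin-like growth factor (IGF) axis was followed in wild-type mammary epithelium through 10 genes that were listed by name: the ligands Igf1 and Igf2, the receptors Igf1r and Igf2r, and the binding proteins Igfbp2, Igfbp3, Igfbp4, Igfbp5, Igfbp6 and Igfbp7. All 10 were found among the 24594 genes of the count table, and the list has no threshold on expression. Transcripts were measured by bulk RNA sequencing in luminal and in basal cells of the virgin gland. The mice were wild type, of the strain C57BL/6J, with no treatment named, and their age is not given in the labels. The 2 cell types were sorted by FACS on EpCAM and CD49f, so each library is a gated mixture of all cells in that gate, with 5 libraries for each cell type.

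The IGF ligands are secreted growth factors, made chiefly by liver and by stromal cells, and epithelial cells receive them through the receptor tyrosine kinase IGF1R. IGF-binding proteins are secreted proteins that hold the ligands outside the cell, either keeping them from the receptor or carrying them to it, and secreted proteases such as PAPP-A set the ligands free by cutting the binding proteins. In the mammary gland, IGF signalling is known for its part in ductal growth, and IGFBP5 for its rise when the gland regresses after lactation.

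Library totals ranged from 13203146 to 17998165 counts, with 16840 to 17842 genes detected by a count in each. Titles and cell type labels named opposite cell types in all 10 libraries, and the lineage markers followed the cell type label: 9 of 9 luminal markers were higher in the libraries labelled luminal and 7 of 7 basal markers in those labelled basal, each with non-overlapping libraries. The summed level of the basal markers was 26.5 to 78.9 CPM (counts scaled to library totals with TMM factors) in luminal and 10378 to 14863 CPM in basal libraries. That of the luminal markers was 10038 to 14459 CPM in luminal and 1358 to 1762 CPM in basal libraries, a larger relative level than the reverse. In basal libraries Krt8 was at 429 to 627 CPM, Krt18 at 421 to 727, Epcam at 246 to 419 and Krt19 at 53.6 to 157 CPM. Esr1 was at 9.23 to 20.9 CPM there, Pgr at 5.43 to 8.74, Prlr at 0.0624 to 2.19, Elf5 at 0 to 0.499 and Kit at 0.779 to 1.70 CPM. The part of these markers in the results was not tested. Because each sorted gate was sequenced in bulk, fewer cells of a type within a gate and less RNA per cell cannot be told apart. The labels do not say that the libraries of a group came from separate animals, and the study's methods speak of biological replicates but of fewer than here, so p-values measure the spread between these libraries, which may be technical.

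The binding proteins gave the widest contrasts, and the promoters of 4 of them are shown because Igfbp2 and Igfbp5 lie side by side on chromosome 1, on opposite strands with 5590 bases between them, and had fold changes of opposite direction, that of Igfbp5 being called in some settings and not in others, while Igfbp3 and Igfbp4 joined Igfbp2 in being nearly absent from luminal libraries. Each sequence is the 250 bases before the RefSeq start site in GRCm38.p6, written 5′ to 3′ along the gene's strand, with motif matches in capitals. The windows are chr1:72824230-72824479 (plus strand) for Igfbp2, chr1:72874866-72875115 (minus strand) for Igfbp5, chr11:7213924-7214173 (minus strand) for Igfbp3 and chr11:99040994-99041243 (plus strand) for Igfbp4.
Igfbp2: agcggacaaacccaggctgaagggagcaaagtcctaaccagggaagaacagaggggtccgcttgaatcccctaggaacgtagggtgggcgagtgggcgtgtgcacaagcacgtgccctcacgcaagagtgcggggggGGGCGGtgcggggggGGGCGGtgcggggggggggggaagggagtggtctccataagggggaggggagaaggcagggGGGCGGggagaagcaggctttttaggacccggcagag
Igfbp5: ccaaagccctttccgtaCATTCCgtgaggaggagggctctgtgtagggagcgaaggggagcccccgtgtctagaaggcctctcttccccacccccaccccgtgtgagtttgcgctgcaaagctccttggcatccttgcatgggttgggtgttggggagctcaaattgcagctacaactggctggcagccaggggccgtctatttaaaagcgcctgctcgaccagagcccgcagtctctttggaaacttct
Igfbp3: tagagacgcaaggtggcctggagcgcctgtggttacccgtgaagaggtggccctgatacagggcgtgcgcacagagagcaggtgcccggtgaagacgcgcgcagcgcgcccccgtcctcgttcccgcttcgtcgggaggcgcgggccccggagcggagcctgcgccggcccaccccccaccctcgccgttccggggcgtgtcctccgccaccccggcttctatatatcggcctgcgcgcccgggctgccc
Igfbp4: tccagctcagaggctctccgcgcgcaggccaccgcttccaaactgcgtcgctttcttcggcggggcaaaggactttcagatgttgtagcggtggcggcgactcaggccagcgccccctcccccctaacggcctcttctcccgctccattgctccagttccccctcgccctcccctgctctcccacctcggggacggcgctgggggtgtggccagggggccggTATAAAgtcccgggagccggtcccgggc

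The motifs searched, on both strands, were the TEAD motif GGAATG, the GC box GGGCGG, the TATA box TATAAA, the AP-1 motif TGANTCA and the CArG box. Of 32851 promoter windows of the same length, 12.6% held the first, 32.7% the second, 12.4% the third, 6.75% the fourth and 1.47% the CArG box. The Igfbp2 window held 3 GC boxes, whose first bases lay 37 to 113 bases before the start. A second Igfbp2 start site further downstream, at 72825387, had 1 AP-1 match instead. The Igfbp5 window held 1 TEAD match on the other strand, the Igfbp4 window 1 TATA box whose first base lay 28 bases before the start, and the Igfbp3 window none of the motifs. The Igfbp2, Igfbp3 and Igfbp4 windows held 67.2%, 73.2% and 69.2% G and C, the Igfbp5 window 58.8%, the second Igfbp2 window 56.4%, and the window of Igfbp6, also higher in basal cells, 49.6%. The Igfbp7 window held 74%, with 4 GC boxes, beside a median of 52.4% over all windows. Only full matches to these motifs were counted, so a near match to the TATA box would not be listed. The matches describe letters and are not measured binding.

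Of the 10 genes, 8 had counts high enough to be tested and 7 were called, where 64.8% of the 14609 genes tested were called. Of these, 6 were higher in basal cells, where 31.2% of tested genes were called, and 1 was higher in luminal cells, where 33.6% were called (adjusted p under 0.05, edgeR's quasi-likelihood test with Benjamini-Hochberg adjustment). For the same 6 genes every basal library lay above every luminal library, as for 25.3% of tested genes. The median log2 fold change of the 8, luminal against basal, was -3.51, beside 0.05 over all tested genes. Igf1r, Igfbp2, Igfbp3, Igfbp4, Igfbp6 and Igfbp7 made up the basal side, Igfbp5 the luminal side, and Igf2r was not called.

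**Figure D1:**
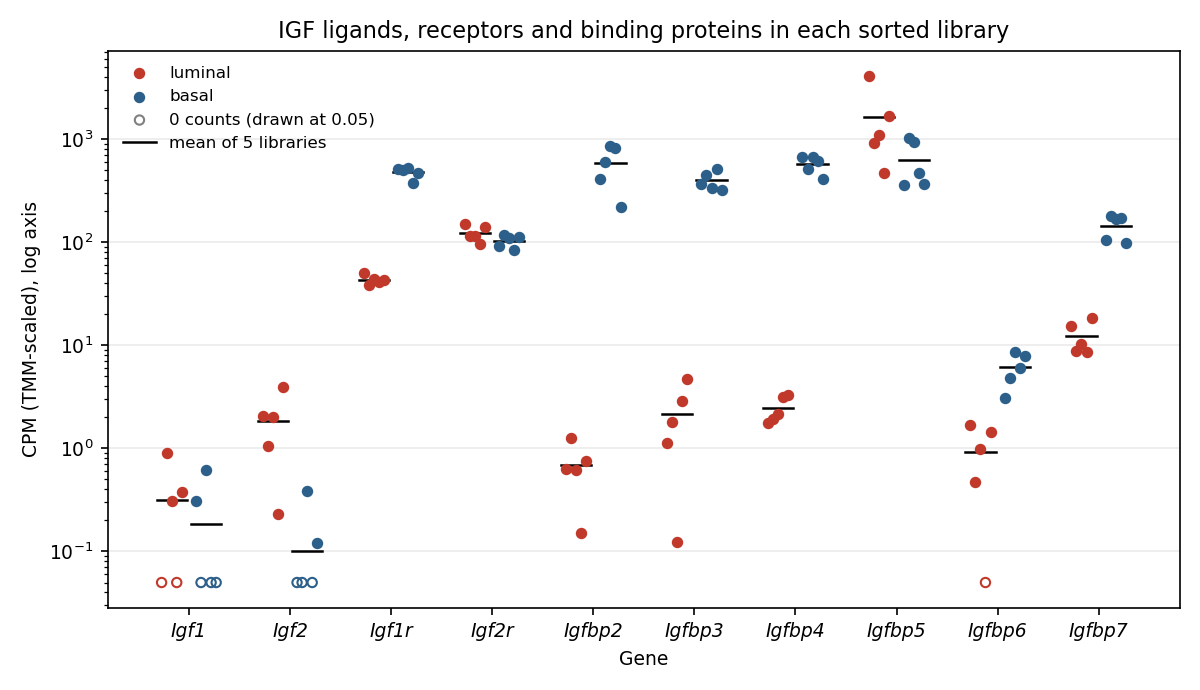
Level of each of the 10 genes in every library, in CPM on a log axis, with luminal libraries in red, basal libraries in blue, a black line at the mean of 5 libraries and open circles for libraries with 0 counts. The luminal and basal points of Igf1r, Igfbp2, Igfbp3, Igfbp4, Igfbp6 and Igfbp7 are apart, whereas those of Igfbp5 and Igf2r overlap and both ligands lie near the floor.

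Both ligands were close to the limit of detection. Igf1, the growth hormone-dependent ligand (Entrez 16000, GRCm38 chr10:87858265-87937047), had 0, 17, 5, 0 and 6 counts in luminal replicates 1 to 5 and 5, 0, 8, 0 and 0 counts in basal replicates 1 to 5. Both cell types thus had libraries with no count at all, and the groups overlapped. A count of 0 allows up to 3 counts, or 0.158 to 0.232 CPM depending on the library. Igf1 did not pass the filter on low counts, and without that filter its log2 fold change was 0.73 with an adjusted p of 0.652 (edgeR quasi-likelihood).

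Igf2, the imprinted fetal growth factor (Entrez 16002, chr7:142650768-142666816), had 33, 20, 33, 3 and 62 counts in luminal replicates 1 to 5 and 0, 0, 5, 0 and 2 counts in the basal ones. The mean level was 1.86 ± 1.39 CPM across luminal and 0.101 ± 0.168 CPM across basal libraries (SD, n = 5 each). Luminal libraries were higher in 5 of 5 same-numbered pairs, yet luminal replicate 4, at 0.229 CPM, lay below basal replicate 3, at 0.387 CPM. The gene missed the filter in the full set of libraries. Without the filter it was called higher in luminal cells (adjusted p = 0.00178, edgeR quasi-likelihood). It passed the filter when luminal replicate 4 or any 1 basal library was left out, and was then called higher in luminal cells. The log2 fold changes were 3.87 to 5.58, with a largest adjusted p of 0.00428 (edgeR quasi-likelihood). Basal libraries held 7 counts of Igf2 in all, so the gene enters a test only through its luminal libraries. In the GENCODE M21 annotation, 62.8% of the exon bases of Igf2 are also exon bases of Gm49394 on the same strand and 1.71% are shared with the antisense gene Igf2os, so its reads are uncertain.

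The receptors separated from each other. Igf1r (Entrez 16001, chr7:67952257-68233668), the signalling receptor for both ligands, was at 51.0, 38.2, 44.3, 41.0 and 43.1 CPM in luminal replicates 1 to 5 and at 513, 506, 528, 374 and 474 CPM in the basal ones. The lowest basal library stood far above the highest luminal one. Luminal cells were 11.0-fold lower, at a log2 fold change of -3.46 (SE 0.15, adjusted p = 3.18e-10, edgeR quasi-likelihood), with 0 of 5 pairs higher in luminal cells. Leaving out any single library moved it between -3.55 and -3.40.

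Igf2r (Entrez 16004, chr17:12682406-12769706), the cation-independent mannose phosphate receptor that removes IGF2 and sorts lysosomal enzymes, was at 151, 116, 116, 95.6 and 139 CPM in luminal replicates 1 to 5. In basal replicates 1 to 5 it was at 92.1, 119, 110.4, 84.1 and 113 CPM. The groups overlapped, with luminal cells higher in 4 of 5 pairs. Its log2 fold change of 0.25 had a 95% interval of -0.10 to 0.60 and an adjusted p of 0.158 (edgeR quasi-likelihood). Scaling set that call: with upper-quartile factors it was 0.37 (adjusted p = 0.0375) and with library totals alone 0.44 (adjusted p = 0.0259), scalings that shifted the median of all genes by 0.12 and 0.19, so that 2 members were then called higher in luminal cells. The antisense RNA Airn runs over 28396 of the 87301 bases of the Igf2r gene, and the labels name a library kit that is not sold as strand-specific, so the reads were taken as unstranded. No exon base is shared in GENCODE M21, and Airn itself was higher in luminal cells (log2 fold change 0.64, adjusted p = 0.0242, edgeR). Its part in the Igf2r values was not tested.

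Per kilobase of merged exons, the scale on which different genes can be compared, the balance of receptors was opposite in the 2 cell types. In luminal libraries Igf2r was at 13.3 ± 2.35 CPM per kb, Igf1r at 2.59 ± 0.283 and the insulin receptor gene Insr at 6.09 ± 1.14 (SD, n = 5 each). In basal libraries Igf1r led with 28.5 ± 3.69, ahead of Igf2r with 11.1 ± 1.59 and Insr with 5.17 ± 0.612 CPM per kb. The ratio of Igf1r to Insr was 0.336 to 0.525 in luminal and 4.67 to 6.37 in basal libraries, and the ratio of Igf1r to Igf2r 0.172 to 0.238 and 2.33 to 3.09. Neither ratio overlapped between the cell types.

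**Figure D2:**
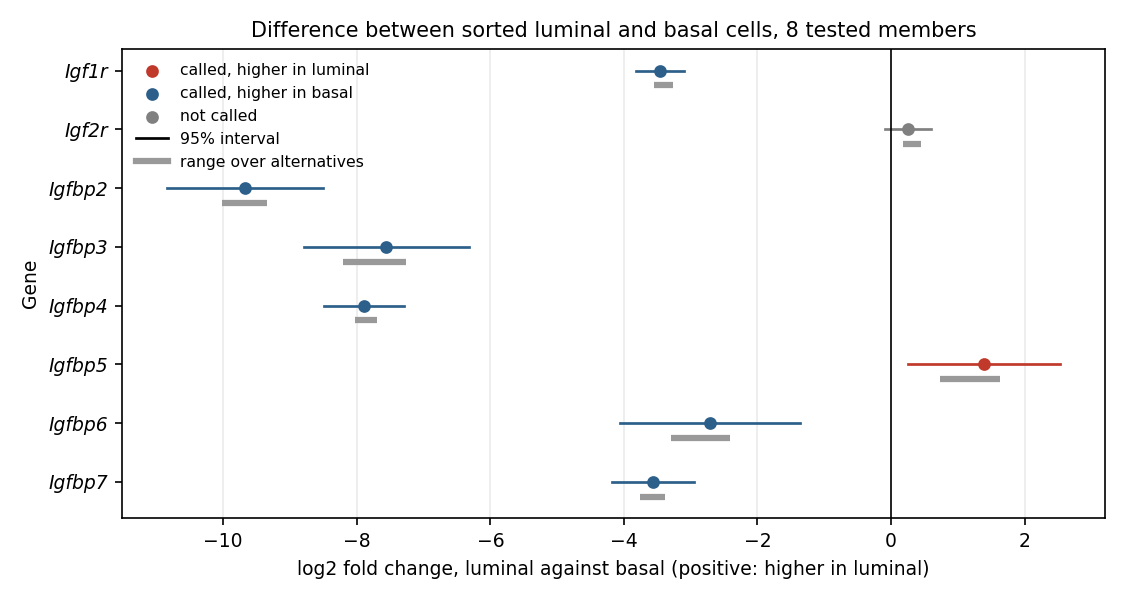
Log2 fold change, luminal against basal, of the 8 tested genes, with the 95% interval as a thin line and, as a grey bar, the range over the alternative settings and left-out libraries. Negative values are higher in basal cells. Igfbp2, Igfbp3 and Igfbp4 lie farthest to the basal side, at -9.67, -7.55 and -7.89, and only the interval of Igf2r includes 0.

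Among the binding proteins, Igfbp2, Igfbp3 and Igfbp4 were counted almost entirely in basal libraries. Igfbp2 (Entrez 16008, chr1:72824480-72852474), whose product can also bind integrins, was at 414, 598, 859, 831 and 221 CPM in basal replicates 1 to 5, against 0.625, 1.26, 0.613, 0.153 and 0.761 CPM in the luminal ones. The basal libraries spread widely, with replicates 3 and 4 highest and replicate 5 lowest, but none came near the luminal range of 2 to 24 counts. Basal cells were 815-fold higher, which is -9.67 on the log2 scale of luminal against basal (SE 0.51, adjusted p = 1.30e-09, edgeR quasi-likelihood).

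Igfbp3 (Entrez 16009, chr11:7206086-7215498) encodes the main carrier of IGFs in serum. It was at 369, 453, 334, 517 and 324 CPM in basal replicates 1 to 5 and at 1.13, 1.79, 0.123, 2.90 and 4.76 CPM in the luminal ones. The basal libraries were close to each other, while the luminal ones, at 2 to 75 counts, differed among themselves by more. This gave a log2 fold change of -7.55 (SE 0.54, adjusted p = 2.42e-08, edgeR quasi-likelihood), and limma voom gave -8.21.

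Igfbp4 (Entrez 16010, chr11:99040005-99052655) encodes an inhibitory binding protein and a substrate of PAPP-A. Its basal replicates 1 to 5 were at 670.1, 519, 681, 615 and 414 CPM and its luminal ones at 1.75, 1.95, 2.15, 3.13 and 3.30 CPM. Both groups were tight and far apart, with a log2 fold change of -7.89 (SE 0.26, adjusted p = 3.03e-11, edgeR quasi-likelihood).

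For these 3 genes, the luminal mean came to 0.117% (Igfbp2), 0.536% (Igfbp3) and 0.423% (Igfbp4) of the basal mean. The 7 basal markers, among them Krt5, Krt14, Trp63 and Acta2, were at 0.143% to 0.572% of their basal means in the same luminal libraries. Basal cells in the luminal gate would add reads to all of these genes, and their part in the low luminal values was not tested. For Igf1r, Igfbp7 and Igfbp6 the corresponding values were 9.09%, 8.46% and 15.1%, all above the range of the basal markers.

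Igfbp7 (Entrez 29817, chr5:77349240-77408045), a family member with weak affinity for IGFs that is also abundant in vessel walls, was at 104, 181, 169, 174 and 98.6 CPM in basal replicates 1 to 5. The luminal replicates were at 15.3, 8.90, 10.2, 8.70 and 18.4 CPM, so the groups stood well apart although basal replicates 1 and 5 were lower than the others. The difference amounted to -3.56 on the log2 scale (SE 0.26, adjusted p = 3.66e-08, edgeR quasi-likelihood). On the opposite strand, Polr2b shares 7.03% of its exon bases. Of the 5 pericyte markers, 4 were tested and all 4 were called higher in basal cells, while Abcc9 had too few counts and overlapped. Summed, the 5 markers were at 0 to 2.45 CPM in luminal and 31.7 to 45.4 CPM in basal libraries, with Rgs5 alone at 16.9 to 28.9 CPM in basal libraries, and none was at 0 there. The 6 endothelial markers summed to 2.69 to 7.10 CPM in luminal and 9.44 to 16.9 CPM in basal libraries. Of the 4 tested endothelial markers, Cdh5 and Cldn5 were called higher in basal cells, and Pecam1 and Tek were not called. The sums of immune, adipocyte and red blood cell markers also did not overlap, whereas those of fibroblast markers, given below, did. In luminal and basal libraries the sums were 15.9 to 22.2 and 26.5 to 53.2 CPM for immune markers. For adipocyte markers they were 0.611 to 1.59 and 3.95 to 9.13 CPM, and for red blood cell markers 3.37 to 16.8 and 0 to 0.188 CPM. Within the immune list Cd74 and Csf1r were called higher in basal cells, Cd52 and Lyz2 higher in luminal cells, and Ptprc was at 0.381 CPM or less in every library. The study's sorting methods describe lineage antibodies to the endothelial protein CD31, the leukocyte protein CD45 and the red cell protein TER-119, and name no pericyte protein. The markers' part in the Igfbp7, Igfbp3 and Igfbp4 differences was not tested.

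Igfbp6 (Entrez 16012, chr15:102144186-102149512), which prefers IGF2 over IGF1, had the lowest level per kilobase of the binding proteins in basal cells. Its basal replicates 1 to 5 were at 3.06, 4.78, 8.67, 6.06 and 7.97 CPM and its luminal ones at 1.69, 0.474, 0.981, 0 and 1.46 CPM. The groups did not overlap, although the counts were small, with 49 to 133 in basal and 0 to 27 in luminal libraries. The difference was -2.71 on the log2 scale (SE 0.59, adjusted p = 0.00101, edgeR quasi-likelihood).

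Igfbp5 (Entrez 16011, chr1:72858065-72874865), a substrate of PAPP-A and PAPP-A2, was the exception in direction. It was at 4109, 929.7, 1098, 471 and 1681 CPM in luminal replicates 1 to 5, and at 359.7, 1022, 942, 469 and 367 CPM in the basal ones. Luminal replicate 1 was far above every other library, luminal replicate 4 was level with basal replicate 4, and basal replicate 2 exceeded luminal replicate 2, so the groups overlapped and luminal cells were higher in 4 of 5 pairs. The fitted log2 fold change of 1.39 was past the threshold (SE 0.49, 95% interval 0.25 to 2.53, adjusted p = 0.0233, edgeR quasi-likelihood).

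The Igfbp5 call did not hold in every setting. Without luminal replicate 1 the log2 fold change was 0.74 (adjusted p = 0.105, edgeR), with the replicate number as a block 1.09 (adjusted p = 0.0944, edgeR), and with DESeq2 1.36 (adjusted p = 0.0576). It was also lost without basal replicate 1, 4 or 5, with adjusted p from 0.0529 to 0.0605 (edgeR), and held in the other 13 of 19 alternatives. Luminal replicate 1 was also the highest library for other genes, which were picked after their values were seen. Dcn was at 95.1 CPM there and 11.6 to 39.5 CPM in the other luminal libraries, and Col6a3 at 76.5 and 1.37 to 16.1 CPM. The other 5 fibroblast markers did not peak in luminal replicate 1: Col3a1, at 3.44 CPM, was lowest there, and Lum, Dpt (0.250 CPM), Col1a1 (5.38 CPM) and Pdgfra (6.25 CPM) lay within the range of the other luminal libraries. Of the 7 fibroblast markers, Lum, Dpt, Col1a1 and Col3a1 were not called between the cell types and Pdgfra was called higher in basal cells. Dcn and Col6a3 were called higher in luminal cells, at log2 fold changes of 1.67 (adjusted p = 0.00364) and 4.81 (adjusted p = 0.000309, edgeR quasi-likelihood). In basal libraries Dcn was at 10.5 to 14.3 CPM and Col6a3 at 0 to 1.56 CPM. The sum of the list was 35.9 to 187 CPM in luminal and 26.7 to 42.9 CPM in basal libraries, which overlapped. The progenitor marker Kit was at 288 CPM in luminal replicate 1 and at 129 to 208 CPM in the other luminal libraries, and Pgr, the progesterone receptor of mature luminal cells, at 611 and 86.0 to 426 CPM. Their part in the Igfbp5 values was not tested.

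**Figure D3:**
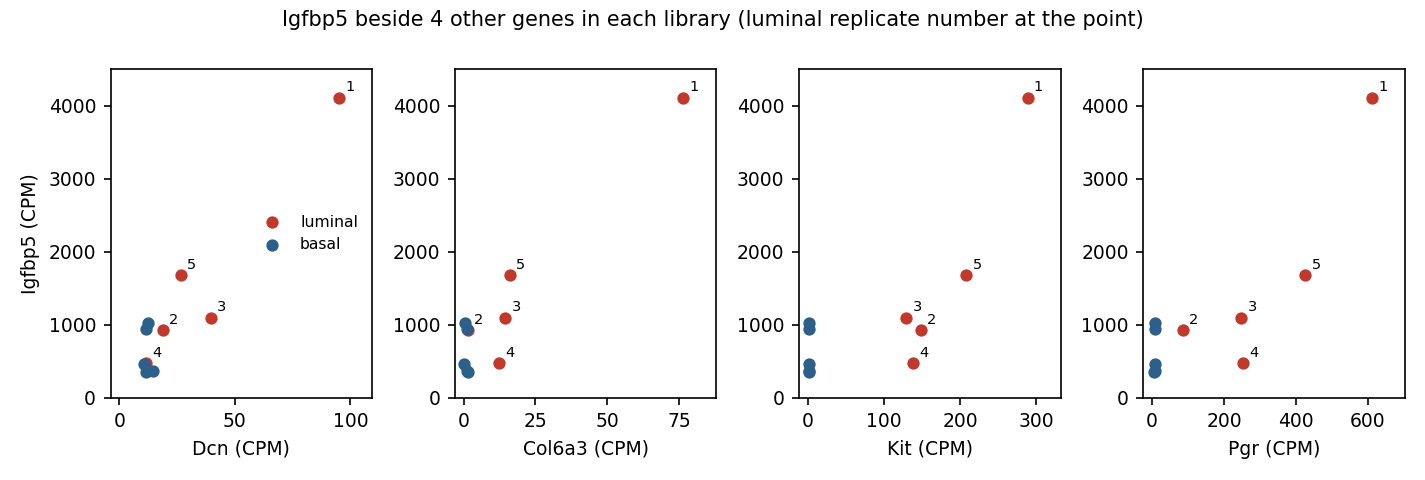
Igfbp5 level against the level of Dcn, Col6a3, Kit and Pgr in each library, all in CPM on linear axes, with luminal libraries in red (replicate number beside the point) and basal libraries in blue. Luminal replicate 1 is highest for these 4 genes, picked after their values were seen (5 other fibroblast markers did not peak there), and the basal libraries reach 1022 CPM of Igfbp5 with Kit and Pgr near 0.

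Because the genes differ in length, the make-up of the binding protein transcripts was compared per kilobase. In luminal libraries Igfbp5 alone took 94.0% ± 2.88 (SD, n = 5) of the summed signal of the 6 genes and Igfbp7 took 1.80% to 8.25%, while each of the others took at most 1.06% in any library. In basal libraries the signal was shared: Igfbp2 took 37.4% ± 8.36, Igfbp4 17.2% ± 4.52, Igfbp3 16.7% ± 4.29, Igfbp7 15.1% ± 1.80, Igfbp5 12.9% ± 4.36 and Igfbp6 0.749% ± 0.458 (SD, n = 5 each). Without length scaling the basal shares of Igfbp2, Igfbp4 and Igfbp5 became 23.8%, 25.8% and 26.1%, so the lead of Igfbp2 rests on that scaling.

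The summed level was 289 ± 242 CPM per kb in luminal and 806 ± 242 CPM per kb in basal libraries (SD, n = 5 each), and on this scale luminal replicate 1, at 699 CPM per kb, was the luminal library that overlapped the basal ones. As a plain share of all counts, with no length scaling, the 6 genes took 0.179% ± 0.151 in luminal and 0.220% ± 0.0624 in basal libraries (SD, n = 5 each). Luminal replicate 1 (0.436%) lay above every basal library, while the other luminal libraries were at 0.0482% to 0.179%. Among these, luminal replicate 5 (0.179%) lay above basal replicates 1 and 5. On the scale per kilobase, without luminal replicate 1, the luminal mean was 186 ± 87.6 CPM per kb (SD, n = 4), a value computed after the data were seen. With Igfbp5 left out of the sum, the values were 8.92 to 19.2 CPM per kb in luminal and 405 to 904 CPM per kb in basal libraries. Ordered by level per kilobase, basal cells had Igfbp2 (317 ± 148), Igfbp4 (131 ± 25.5), Igfbp3 (128 ± 26.5), Igfbp7 (120.3 ± 33.5), Igfbp5 (105 ± 53.9), Igf1r, Igf2r and Igfbp6 (5.49 ± 2.07). Igfbp2 was first in each basal library, with 34.9%, 35.6%, 45.1%, 45.8% and 25.6% of the signal in replicates 1 to 5. The order of Igfbp4, Igfbp3, Igfbp7 and Igfbp5 behind it changed from library to library. Luminal cells had Igfbp5 (276 ± 239, and 174 ± 83.2 without luminal replicate 1) far in front, then Igf2r and Igfbp7 (10.2 ± 3.57), whose ranges overlapped, then Igf1r, and below 1 CPM per kb on average Igfbp6, Igfbp3, Igfbp4, Igfbp2, Igf2 and Igf1.

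**Figure D4:**
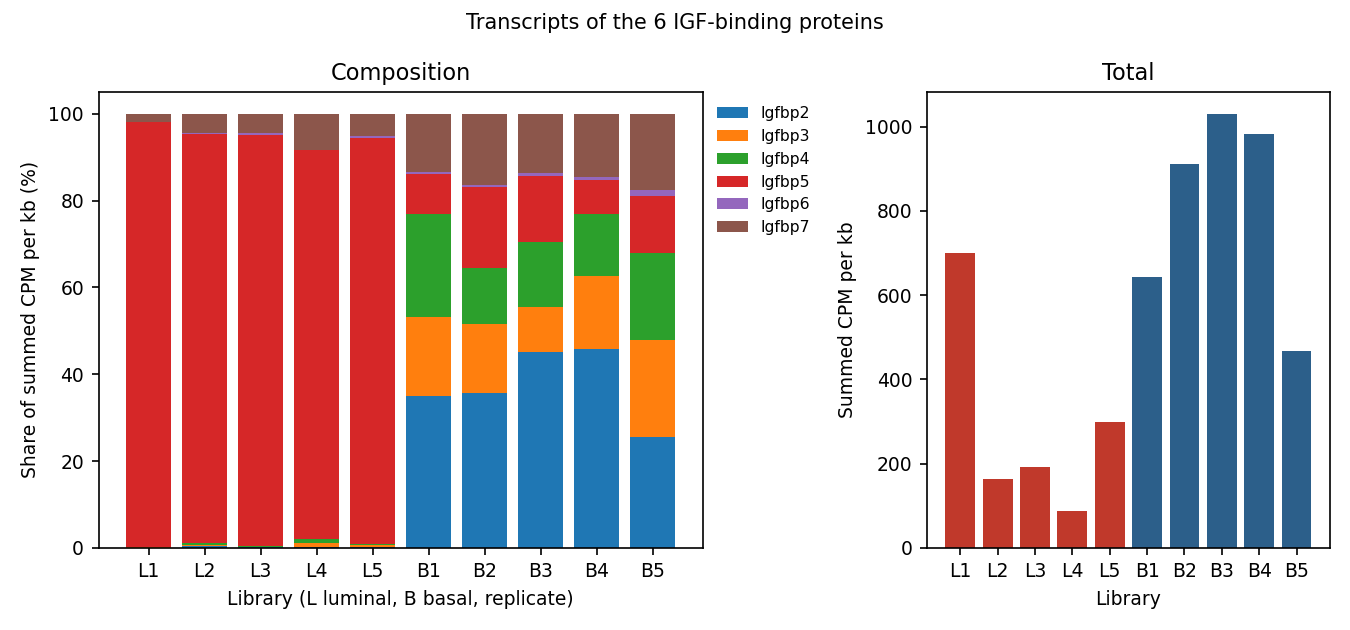
Left, share of each of the 6 binding proteins in their summed CPM per kb in each library (L1 to L5 luminal, B1 to B5 basal), in percent. Right, the summed CPM per kb of the same libraries. Igfbp5 fills 89.8% to 97.8% of the luminal bars, and 7.96% to 18.7% of the basal bars, where 4 other genes add visible parts.

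Other genes of the pathway were taken from a list of 28, ordered by role. Of its 23 tested genes, 9 were higher in luminal cells (33.6% of all tested genes), 9 were higher in basal cells (31.2% of all tested genes) and 5 were not called, with a median log2 fold change of 0.44. With library totals alone as scaling the split was 11 luminal to 7 basal. Of the members, 6 of the 7 called were higher in basal cells, and the filter on low counts had a part in that split. Among those 6, Igfbp2, Igfbp3 and Igfbp6 were no longer tested when 10 counts were required in every library. Igf2, which did not pass the filter, was called higher in luminal cells without it.

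Of the insulin receptor substrates, adaptors that pass the signal of IGF1R and the insulin receptor to PI3 kinase, Irs1 and Irs2 differed in their pattern, and Irs4, with 0 counts in luminal libraries and 0 to 15 in basal ones, was too low to be tested. Irs2 was at 1094, 973, 761, 549 and 1073 CPM in basal replicates 1 to 5 and at 44.1 to 72.2 CPM in luminal libraries. Irs1 was at 20.9 to 30.2 CPM in basal libraries and at 68.5, 33.4, 39.1, 20.2 and 27.9 CPM in luminal replicates 1 to 5, which overlapped. On the log2 scale the difference of Irs2 was -3.88 (SE 0.23, adjusted p = 3.37e-09) and that of Irs1 0.47 (95% interval -0.13 to 1.08, adjusted p = 0.129, edgeR quasi-likelihood). Per kilobase, the ratio of Irs2 to Irs1 was 1.26 to 3.75 in luminal and 37.9 to 53.8 in basal libraries. Irs1 shares 30.9% of its exon bases with an opposite-strand gene model. The insulin receptor gene Insr had a log2 fold change of 0.23 (95% interval -0.11 to 0.58, adjusted p = 0.185, edgeR), and Grb10, an imprinted adaptor that dampens both receptors, one of -0.92 (adjusted p = 0.00122, edgeR).

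The proteases that cut binding proteins were higher in basal cells. Pappa was at 77.0, 41.8, 45.5, 26.9 and 50.4 CPM in basal replicates 1 to 5 and at 0 to 2.13 CPM in luminal libraries. Pappa2, whose product cuts IGFBP3 and IGFBP5, was at 44.0, 28.5, 44.0, 3.69 and 11.9 CPM in basal replicates 1 to 5 and at 0.250 to 0.458 CPM in luminal libraries. Htra1, a secreted serine protease, was at 84.9 to 144 CPM in basal and 3.97 to 11.3 CPM in luminal libraries. The groups of all 3 genes were apart, with log2 fold changes of -5.50 (SE 0.52), -6.25 (SE 0.66) and -4.11 (SE 0.29) and a largest adjusted p of 1.29e-06 (edgeR quasi-likelihood). For Pappa, limma voom gave -6.27.

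The stanniocalcins, secreted inhibitors of PAPP-A, went the other way. Stc2 was at 687, 164, 405, 422 and 502 CPM in luminal replicates 1 to 5 and at 137 to 215 CPM in basal libraries, where luminal replicate 2 fell within the basal range. It had a log2 fold change of 1.37 (SE 0.29, adjusted p = 0.000753, edgeR quasi-likelihood). Stc1, at 3.07 CPM or less in every library, had a log2 fold change of 1.74 (SE 0.58, adjusted p = 0.0165, edgeR) with overlapping groups.

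Both proposed receptors of IGFBP3 were called, in opposite directions. Lrp1, a large endocytic receptor, was at 1431 to 2242 CPM in basal and 18.1 to 32.8 CPM in luminal libraries, a log2 fold change of -6.27 (SE 0.26, adjusted p = 2.19e-10, edgeR quasi-likelihood). Tmem219 had a log2 fold change of 1.59 (SE 0.20, adjusted p = 8.32e-06, edgeR). Among genes tied to the ligands, Igf2bp2, which encodes an RNA-binding protein that can bind Igf2 mRNA, was at 17.4 to 42.8 CPM in luminal and 1.32 to 3.94 CPM in basal libraries, with a log2 fold change of 3.77 (SE 0.34, adjusted p = 3.13e-07, edgeR). H19, the imprinted non-coding neighbour of Igf2, was at 8.19, 13.6, 4.97, 0.993 and 3.43 CPM in luminal replicates 1 to 5 and at 0.125 to 1.57 CPM in basal libraries, and was called at a log2 fold change of 2.60 (SE 0.65, adjusted p = 0.00275, edgeR) although luminal replicate 4 lay within the basal range. Igfals, the acid-labile subunit that completes the serum complex with IGFBP3, had a log2 fold change of 2.75 (SE 0.34, adjusted p = 6.52e-06, edgeR) at 5.48 to 14.1 CPM in luminal libraries. Igfbp1 had 0 counts in every library.

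**Figure D5:**
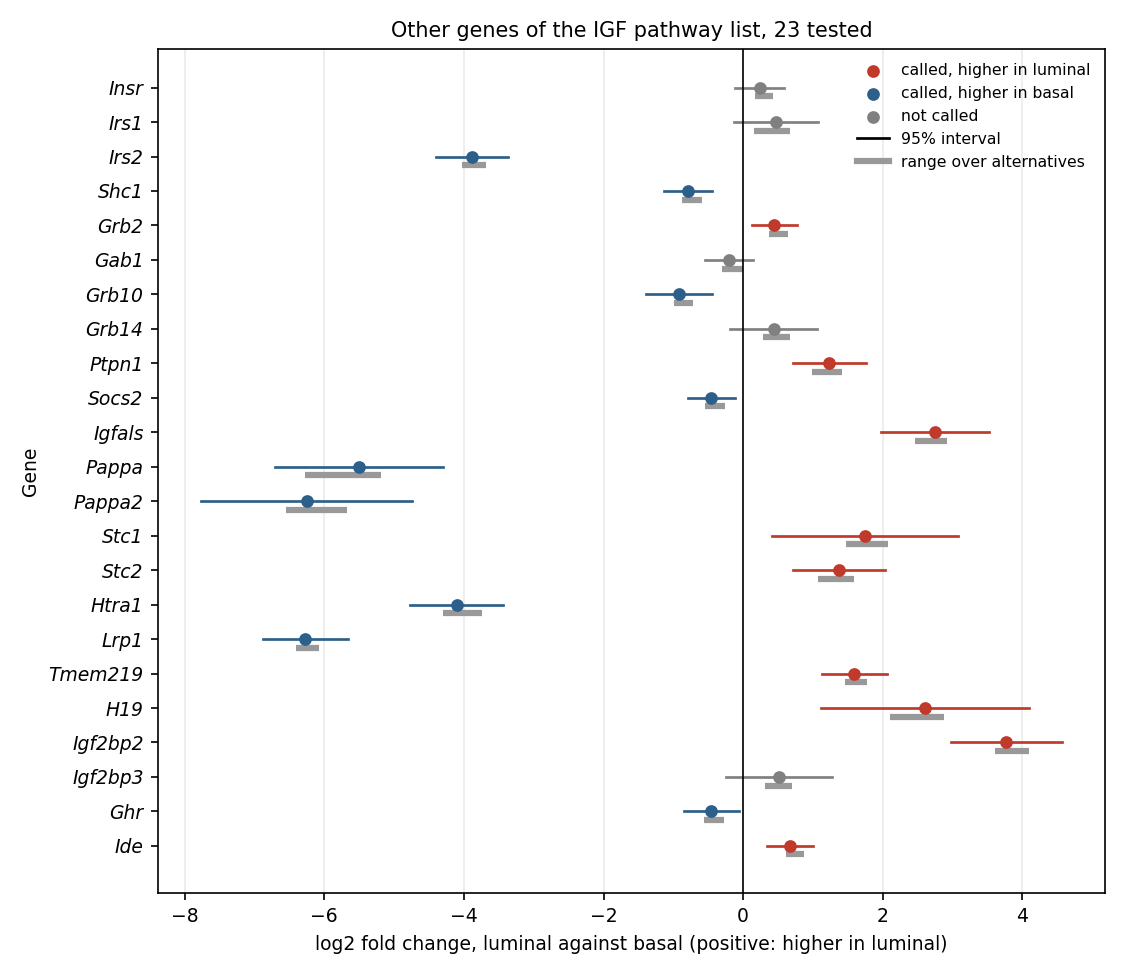
Log2 fold change, luminal against basal, of the 23 tested genes of the pathway list in order of role, with the 95% interval as a thin line and the range over alternatives as a grey bar. Irs2, Pappa, Pappa2, Htra1 and Lrp1 lie at -3.88 or below on the basal side, and Igf2bp2, Igfals and H19 at 2.60 or above on the luminal side.

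For each tested member, the 3 genes most alike in log2 CPM over the 10 libraries were listed by Pearson's r among genes with a mean of at least 10 CPM in either cell type. For Igf1r they were Ttc37, Syde2 and Kcnmb1 (r of 0.998 or above). For Igfbp2 they were Gid4, Aldh1l2 and Ppic, for Igfbp3 Slpi, Mir7678 and Macrod2, and for Igfbp4 Cald1, Ext1 and Nacad. Igfbp6 was most like Faxc, Wipf3 and Tmem18, and Igfbp7 most like Abi3, C4a and Hgf. Igf2r was most like Tbc1d25, Zbtb14 and Ppp1r21 (r from 0.940 to 0.952), and Igfbp5 most like Plxnb2, Nhlrc3 and Ids (r from 0.942 to 0.968). For the 6 basal members the points fall into 2 clusters, the cell types, so r describes a shared step between them.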

How the data were processed

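The authors deposited unnormalized counts, 1 whole number per gene and library. The submitters' processing notes name cutadapt 4.2, Bowtie2 2.3.5.1 and the build mm10. The study's methods describe poly(A) selection, with fewer replicates than here, so that step was assumed. The counting tool, annotation and use of strand and of multi-mapping reads are not given in the sources used here. Bowtie2 does not align across splice junctions, which can lower counts.

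Groups follow the cell type label, which the source name and the letter in the description match. Entrez identifiers were matched to RefSeq symbols (24570 of 24594), and exon lengths came from GENCODE M21. Genes were filtered with filterByExpr of edgeR 4.0.16 in R 4.3.3 (minimum count 10, minimum total 15), leaving 14609, and scaled with TMM. Cell type was the only term of edgeR's quasi-likelihood test, with Benjamini-Hochberg adjustment over all tested genes and a threshold of 0.05. The tests were tested on simulated data. Same-numbered libraries share the leading number of the description, which may be an animal but is not stated to be. Their deviations from the group means correlated at -0.09 to 0.13.

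All 10 members were named, as were pathway genes that passed the threshold with at least a 4-fold change, and 10 listed by name (Insr, Irs1, Irs2, Pappa, Stc1, Stc2, Igfbp1, Igfals, H19 and Grb10). Members, lists and the marker sets were chosen with earlier results of these data known. Tmem219, the single marker genes and the libraries singled out were picked after their values were seen. Alternatives were other scalings, filters and tools (DESeq2 1.42.0, limma 3.58.1), the replicate block, other gene lengths and leaving out each library. No 2 replicates agreed within sampling noise, with a chi-square per degree of freedom of at least 15.2.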

Additional observations from a re-analysis of the deposited data

Results flagged for a closer look

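In groups of 5 libraries, 1 library stood apart from the other 4 for 5 of the 83 gene or share values checked, and chance alone gives about 4.15. The Irs1 level of basal replicate 4 was low, at 20.9 CPM against 27.8 to 30.2 CPM in the other basal libraries. In the same library Shc1, an adaptor of receptor tyrosine kinases, was at 121 CPM against 142 to 149.9 CPM, and Igf2bp2 was at 3.94 CPM against 1.32 to 2.05 CPM. Htra1 in basal replicate 3 was at 84.9 CPM against 130.4 to 144 CPM. The share of Igfbp4 in the binding protein signal of luminal replicate 4 was 0.812% against 0.0567% to 0.269%.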

How the results depend on the processing

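Every tested member and pathway gene kept the direction of its fold change in all alternatives run. Of 149 values for the 8 tested members, 141 stayed on the same side of the threshold, 6 lost the call and 2 gained it, and of 433 values for the pathway list, 417 stayed, 11 lost it and 5 gained it. The call of Igf2r was gained with upper-quartile factors (log2 fold change 0.37) and with library totals only (0.44). The call of Igfbp5 was lost with DESeq2 (1.36) and with the replicate block (1.09, adjusted p = 0.0944, edgeR), and left-out libraries moved it between 0.74 and 1.63. Losing luminal replicate 1, or basal replicate 1, 4 or 5, ended that call. The block changed no other member's call. It moved no count of calls by over 1.5 times. Of the 5 luminal libraries, 3 correlated best with the basal library of their own number. The mean correlation was 0.031 for libraries of the same number and -0.005 for those of other numbers. A shared source is neither stated in the labels nor established by these values. The cause of these losses was not tested.

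With at least 10 counts in every library, 4 members were called, because Igfbp2, Igfbp3 and Igfbp6 are low in luminal cells and were no longer tested. Without length scaling, the basal shares in the binding protein signal were 23.8% for Igfbp2, 25.8% for Igfbp4, 26.1% for Igfbp5, 0.282% for Igfbp6 and 6.23% for Igfbp7, and the luminal shares 98.4% for Igfbp5, 0.0529% for Igfbp6 and 1.02% for Igfbp7. With the longest transcript as length, the basal share of Igfbp7 was 12.4%. Depth limits Igf1 and Igf2, which had at most 62 counts in a library, and the size of the Igfbp2, Igfbp3, Igfbp4 and Igfbp6 folds, whose luminal counts were 75 or fewer. Leaving out luminal replicates 1 and 4 together was chosen after seeing the data, and it ended no member's call.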
